A study of Mus musculus with 16 samples.

Results

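The cGAS-STING DNA sensing genes are 7 mouse genes chosen by name: Cgas, Sting1, Tbk1, Irf3, Ikbke, Zbp1 and Aim2. All 7 were found among the 41079 genes of the count table, and all 7 passed the filter on low counts that left 16742 genes for testing. Their level was compared between livers of mice with and without a Cre-driven deletion in the glucagon receptor gene Gcgr, in males and in females.

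DNA in the cytosol, from a virus, a damaged nucleus or a leaking mitochondrion, is bound by the enzyme cGAS, which makes the cyclic dinucleotide cGAMP. cGAMP binds STING on the endoplasmic reticulum, STING recruits the kinase TBK1 or its relative IKKε, and the kinase phosphorylates the transcription factor IRF3, which switches on type I interferon. In liver, macrophages and other non-parenchymal cells are known for strong STING signalling, while hepatocytes are known to hold little STING protein.

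The study asked how lifelong loss of glucagon signalling in the liver acts on ageing mice, and poly-A RNA of whole liver was sequenced at 20 to 22 months of age. LKO mice carried a Gcgr gene with LoxP sites around exons 6 to 12 together with a Cre recombinase under the Albumin promoter, which is active in hepatocytes. CRE- mice carried the same floxed Gcgr gene without Cre, and all were on the C57BL/6J background. Each of the 4 groups (male CRE-, male LKO, female CRE-, female LKO) held 4 mice, with 1 library each, and between 33268424 and 56488920 reads were counted per library.

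The table holds 1 count for Gcgr in each library, with no counts per exon, so deleted and remaining exons cannot be told apart. Values are given as CPM, the reads of a gene relative to the reads of its library, scaled between libraries by the trimmed mean of M values (TMM). Gcgr stood at 190.4, 193, 127 and 189.6 CPM in male CRE- replicates 1 to 4 and at 117, 136, 129.9 and 160.4 CPM in male LKO. In females it stood at 162, 208, 201 and 180.0 CPM in CRE- and at 48.8, 132, 119 and 93.6 CPM in LKO. The male groups overlapped through CRE- replicate 3, whereas all 4 female LKO libraries lay below every female CRE- library. The Gcgr log2 fold change was -0.37 ± 0.24 in males and -0.93 ± 0.25 in females (edgeR with Benjamini-Hochberg adjustment, adjusted p = 0.671 and 0.0443). Xist, which is transcribed from the inactive X chromosome, gave at most 12 reads in any male library and at least 5136 in any female library. Ddx3y, a gene of the Y chromosome, gave 0 reads in all 8 female libraries and at least 1685 in any male library, so the labelled sex matched in all 16.

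A pair of libraries stood apart over all genes. On the first principal component, with 23.9% of the variance, female LKO replicate 1 scored 114 and the next library, female LKO replicate 4, scored 75.4. On the second, with 16.8%, male CRE- replicate 3 scored 89.6.

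None of the 7 genes passed an adjusted p of 0.05 in the edgeR quasi-likelihood test with Benjamini-Hochberg adjustment over all genes tested, in either sex. In males 0 of 7 passed, against 76 of all genes tested (0.454%), and 0 of 7 had an unadjusted p under 0.05, as had 1595 of all genes (9.53%). In females 0 of 7 passed, against 710 of all genes (4.24%), while 3 of 7 had an unadjusted p under 0.05, as had 3584 of all genes (21.4%). Those 3 were Irf3, with a lower mean in LKO, and Cgas and Sting1, with a higher mean in LKO. With the DESeq2 Wald test 0 of 7 passed in males (background 1.72%) and 1 of 7, Irf3, in females (background 10.2%). With limma-voom and sample quality weights 0 of 7 passed in males (background 0.884%) and the same gene, Irf3, was the 1 that passed in females (background 11.8%). The median log2 fold change of the 7 genes was -0.14 in males, beside -0.01 for all genes, and 0.60 in females, beside 0.04.

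**Figure D1:**
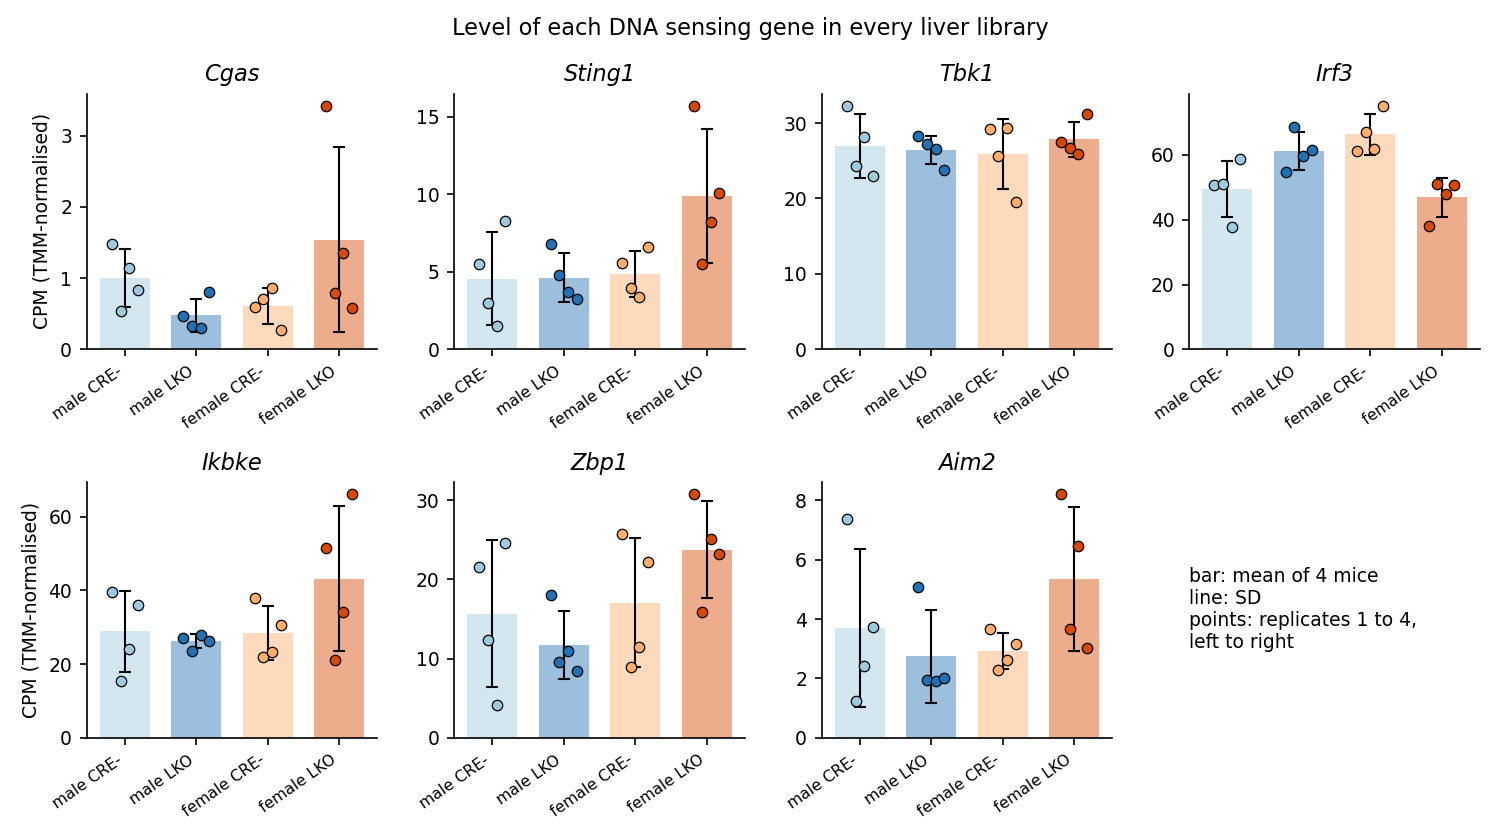
Each panel plots the level of 1 gene in CPM after TMM scaling, with points for the 4 mice of each group, bars for the mean and lines for the SD. The 4 female LKO livers lay below the 4 female CRE- livers for Irf3 (38.0 to 51.1 against 61.1 to 75.2 CPM), while the female groups overlapped for the other 6 genes.

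Cgas encodes the sensor itself, on chromosome 9 (78337800 to 78350519 on GRCm39, minus strand). It was the member with the fewest reads, from 10 to 136 per library, so that counting error was large. In males Cgas measured 1.48, 0.535, 1.14 and 0.832 CPM in CRE- and 0.463, 0.333, 0.298 and 0.810 CPM in LKO. In females it measured 0.599, 0.701, 0.862 and 0.267 CPM in CRE- and 3.42, 0.798, 1.35 and 0.579 CPM in LKO. In males 3 of 4 LKO livers were below every CRE- liver, and in females only replicates 1 and 3 of LKO were above every CRE- liver. The edgeR log2 fold change was -1.07 ± 0.56 (SE) in males (Benjamini-Hochberg adjusted p = 0.576) and 1.33 ± 0.56 in females (unadjusted p = 0.0293, adjusted p = 0.174). Without female LKO replicate 1, which held 136 of the reads, the female value was 0.61. The difference between the female and the male change was 2.40 ± 0.79 on the log2 scale, with an unadjusted p of 0.00782 and an edgeR Benjamini-Hochberg adjusted p of 0.213.

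Sting1 encodes the cGAMP receptor and lies on chromosome 18 (35866731 to 35873607, minus strand). It measured 5.50, 2.96, 1.51 and 8.29 CPM in male CRE- and 6.79, 4.77, 3.68 and 3.24 CPM in male LKO. In female CRE- it measured 5.57, 3.93, 3.38 and 6.60 CPM, and in female LKO 15.7, 5.51, 8.19 and 10.1 CPM. Male CRE- livers alone spanned 5.50-fold, and the male LKO livers lay inside that span. The sign of the male value below, which was near 0, differed between scalings. In females 3 of 4 LKO livers were above every CRE- liver, and replicate 2 was not. The log2 fold change was 0.02 ± 0.44 in males (edgeR with Benjamini-Hochberg adjustment, adjusted p = 0.998) and 1.02 ± 0.44 in females (unadjusted p = 0.0327, adjusted p = 0.185). It was 0.72 in females without LKO replicate 1, and ran from -0.29 (without CRE- replicate 3) to 0.47 (without CRE- replicate 4) in males. The difference between the sexes was 1.004 ± 0.62 (edgeR with Benjamini-Hochberg adjustment, adjusted p = 0.412), and 0.54 without male CRE- replicate 4.

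Tbk1 encodes the kinase that STING recruits (chromosome 10, 121382360 to 121422699, minus strand). Its values were 32.3, 24.3, 28.2 and 23.0 CPM in male CRE-, and 28.2, 27.2, 26.5 and 23.8 CPM in male LKO. They were 29.1, 25.6, 29.3 and 19.5 CPM in female CRE-, and 27.5, 26.8, 25.96 and 31.2 CPM in female LKO. All 4 groups overlapped, and the 16 livers spanned 1.66-fold, the narrowest span of the 7 genes. The log2 fold change was -0.03 ± 0.16 in males and 0.10 ± 0.16 in females, with edgeR p-values of 0.971 and 0.760 after Benjamini-Hochberg adjustment.

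Ikbke encodes IKKε, the kinase related to TBK1 that is itself induced by inflammatory signals (chromosome 1, 131182337 to 131207339, minus strand). In males it measured 39.6, 15.5, 24.2 and 36.1 CPM in CRE- and 27.2, 23.7, 27.8 and 26.3 CPM in LKO. In females it measured 38.0, 22.0, 23.2 and 30.6 CPM in CRE- and 51.5, 21.2, 34.0 and 66.1 CPM in LKO. Female LKO replicates 1 and 4 were above every other library of the series, whereas replicate 2 was below every female CRE- liver. Ikbke shared 170 exonic bases with Gm28913 on the opposite strand, whose mean was 0.636 CPM, and the reads had been assigned by strand. On the log2 scale the change was -0.14 ± 0.32 in males and 0.60 ± 0.32 in females (edgeR with Benjamini-Hochberg adjustment, adjusted p = 0.919 and 0.292). Without single libraries the male value ran from -0.34 (without CRE- replicate 2) to 0.04 (without CRE- replicate 1).

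Irf3 encodes the transcription factor at the end of the cascade (chromosome 7, 44647072 to 44652272, plus strand). In females it measured 61.1, 66.9, 62.0 and 75.2 CPM in CRE- and 38.0, 51.1, 47.9 and 50.7 CPM in LKO. In males it measured 50.8, 51.2, 37.9 and 58.7 CPM in CRE- and 54.6, 68.7, 59.6 and 61.7 CPM in LKO. The female LKO values were all lower than the CRE- values. Female groups did not overlap, in either direction, for 1 of the 7 genes and for 1944 of all genes tested (11.6%). In males the LKO mean was the higher one, the groups overlapped through CRE- replicate 4, and for 0 of the 7 genes were the male groups apart (6.49% of all genes). Mean Irf3 was 66.3 ± 6.46 CPM (SD, n = 4) in female CRE- and 46.9 ± 6.11 CPM in female LKO, and 49.6 ± 8.64 and 61.1 ± 5.86 CPM in male CRE- and male LKO.

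For Irf3 the female log2 fold change was -0.50 ± 0.16, with an unadjusted p of 0.00550 and an edgeR Benjamini-Hochberg adjusted p of 0.0773, and 4 of 4 LKO livers were below the CRE- mean. The DESeq2 Wald test gave -0.49 with a Benjamini-Hochberg adjusted p of 0.0374, and limma-voom with sample quality weights gave -0.42 with an adjusted p of 0.0314, in a range of 0.0314 to 0.230 over the alternatives run. Leaving out single libraries moved the edgeR value between -0.54 and -0.39, and the Benjamini-Hochberg adjusted p between 0.0538 and 0.230. The male log2 fold change was 0.30 ± 0.16 (edgeR with Benjamini-Hochberg adjustment, adjusted p = 0.568), with 4 of 4 LKO livers above the CRE- mean, and 0.17 without CRE- replicate 3. The female change minus the male change was -0.80 ± 0.22, with an unadjusted p of 0.00221 and an edgeR Benjamini-Hochberg adjusted p of 0.173. In DESeq2 that difference was -0.77, with a Benjamini-Hochberg adjusted p of 0.0470, and over the alternatives run the adjusted p ran from 0.0470 to 0.340.

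Zbp1 encodes a sensor of left-handed nucleic acid helices that can start necroptosis and is itself induced by interferon (chromosome 2, 173048405 to 173060715, minus strand). It measured 21.5, 12.3, 4.16 and 24.7 CPM in male CRE- and 17.98, 9.60, 11.01 and 8.43 CPM in male LKO. In females it measured 25.7, 8.95, 11.5 and 22.2 CPM in CRE- and 30.8, 15.9, 25.1 and 23.3 CPM in LKO. Male CRE- replicate 3 was the lowest of the 16 livers and female LKO replicate 1 the highest, a span of 7.39-fold. In both CRE- groups replicates 1 and 4 were above replicates 2 and 3. In edgeR the fold change on the log2 scale was -0.42 ± 0.44 in males and 0.48 ± 0.44 in females (edgeR with Benjamini-Hochberg adjustment, adjusted p = 0.798 and 0.584). Leaving out single libraries moved the male value from -0.75 (without CRE- replicate 3) to -0.11 (without CRE- replicate 4), and the female value from 0.26 (without CRE- replicate 2) to 0.74 (without CRE- replicate 1).

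Aim2 encodes a DNA sensor that assembles an inflammasome, outside the interferon branch (chromosome 1, 173177105 to 173293606, plus strand). In males it measured 7.38, 1.25, 2.42 and 3.73 CPM in CRE- and 5.09, 1.96, 1.91 and 1.999 CPM in LKO. In females it measured 3.66, 2.28, 2.63 and 3.15 CPM in CRE- and 8.21, 3.66, 6.48 and 3.04 CPM in LKO. Replicate 1 was the highest library in all 4 groups, and both comparisons overlapped. The male log2 fold change was -0.43 ± 0.48 and the female one 0.87 ± 0.48 (edgeR with Benjamini-Hochberg adjustment, adjusted p = 0.807 and 0.316). The male value was 0.14 without CRE- replicate 1 and -0.94 without LKO replicate 1.

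**Figure D2:**
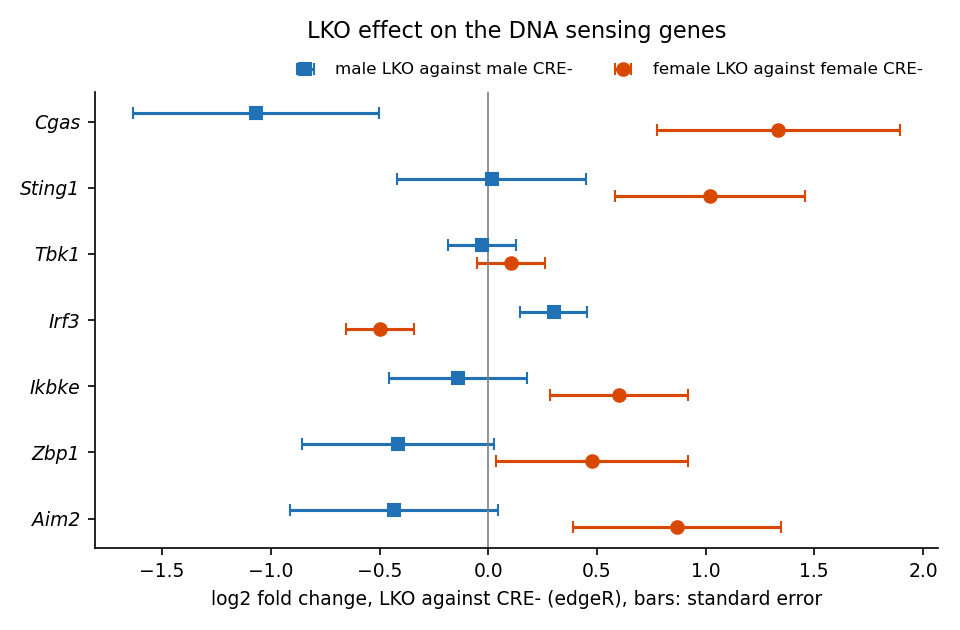
The log2 fold change of LKO against CRE- from edgeR is plotted for each gene, with squares for males, circles for females and lines for the standard error. In females 6 of 7 values lay above 0 and Irf3 lay at -0.50, and in males Irf3 lay highest at 0.30 and Cgas lowest at -1.07.

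To set genes beside each other, CPM was divided by the gene's length in kilobases. The mean over 16 livers was 22.1 ± 4.06 (SD) CPM per kb for Irf3, 8.84 ± 1.05 for Tbk1, 7.89 ± 3.63 for Zbp1, 7.01 ± 2.81 for Ikbke, 2.57 ± 1.48 for Sting1, 0.372 ± 0.209 for Aim2 and 0.219 ± 0.184 for Cgas. The transcription factor thus had the highest level per length in all 16 livers, and the sensor cGAS had the lowest in 14 of 16. Tbk1 was above Zbp1 in 10 of 16 livers and above Ikbke in 12 of 16, so these 3 neighbours were not separated beyond their spread. Sting1 was below each of those 3 and above Aim2 in all 16. The place of Aim2 in this order depends on its annotated length of 9900 bases, the longest of the members (2329 for Sting1). In plain CPM Aim2 was above Sting1 only in male CRE- replicates 1 (7.38 against 5.50) and 3 (2.42 against 1.51). Per length, Tbk1 was between 1.34 and 14.4 times the level of Sting1.

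The sexes were also compared within each genotype. Among CRE- livers 0 of 7 genes passed in edgeR (background 0.920%) 0 of 7 in DESeq2 (2.69%) and 0 of 7 in limma-voom (1.97%), and 1 of 7 had an unadjusted p under 0.05, as had 2121 of all genes tested. That gene was Irf3, higher in females by 0.42 ± 0.16 on the log2 scale, with an edgeR Benjamini-Hochberg adjusted p of 0.275. The Irf3 values of the sexes did not overlap, here or among LKO livers. No share of all genes without overlap is given for these comparisons, so this has no background. Among LKO livers 0 of 7 passed in edgeR (background 1.13%) and 5 of 7 had an unadjusted p under 0.05, as had 2991 of all genes tested. Cgas, Sting1, Ikbke and Zbp1 had higher means in females, and Irf3 a lower one. DESeq2 called 1 of 7 there, Cgas (background 7.34%), with a log2 difference of 1.70 and a Benjamini-Hochberg adjusted p of 0.0384 (0.0384 to 0.490 over the alternatives run), and limma-voom called 0 of 7 (5.69%). For the difference of the LKO effect between the sexes edgeR called 0 of 7 genes (0% of all genes tested), and 2 of 7, Cgas and Irf3, had an unadjusted p under 0.05, as had 2672 of all genes tested. DESeq2 called 1 of 7 for that difference, Irf3 (background 2.25%), and limma-voom called 0 of 7 (0.173%).

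Since a whole liver holds several cell types, marker genes were summed per library. The 6 leukocyte markers, of which Laptm5 was the most abundant, summed to 179, 80.9, 82.2 and 243 CPM in male CRE- and to 225, 124, 125 and 99.7 CPM in male LKO. In females they summed to 163, 93.7, 104 and 248 CPM in CRE- and to 603, 166, 307 and 239 CPM in LKO. The female groups overlapped through CRE- replicate 4, and 0 of the 6 markers passed in edgeR while 5 had an unadjusted p under 0.05 with a higher mean in LKO, beside 4.24% and 21.4% of all genes. All 6 were detected.

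The 11 markers of macrophages and Kupffer cells, led by Cd5l, summed to 1122, 598, 320 and 1694 CPM in male CRE- and to 1517, 827, 918 and 847 CPM in male LKO. In female CRE- they summed to 987, 732, 812 and 1664 CPM, and in female LKO to 4551, 1251, 2937 and 1783 CPM. In males 0 of the 11 markers passed (0.454% of all genes tested). Adgre1, which encodes the F4/80 antigen, was the 1 marker of 11 that passed in females, beside 4.24% of all genes tested. It measured 31.3, 28.5, 28.7 and 34.2 CPM in female CRE- and 334, 45.2, 99.4 and 64.9 CPM in female LKO, and the groups did not overlap. Its log2 fold change in females was 2.15 ± 0.57 (edgeR with Benjamini-Hochberg adjustment, adjusted p = 0.0451), with 4 of 4 livers above the CRE- mean. The highest Adgre1 value was that of LKO replicate 1, which stood apart over all genes, and no fold change without that library is given. All 11 markers had a higher fitted level in female LKO, with a median log2 fold change of 1.38, beside 0.15 in males. Of the 11, 9 had an unadjusted p under 0.05 in females in edgeR, beside 21.4% of all genes.

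Sting1 followed these sums across livers. As a percentage of the summed macrophage markers, Sting1 stood at 0.490, 0.496, 0.472 and 0.490% in the 4 male CRE- livers, although its own level differed 5.50-fold between them. Against the leukocyte markers it was less even in those livers, at 3.07, 3.66, 1.83 and 3.41%. Against the macrophage markers it stood at 0.448, 0.576, 0.401 and 0.383% in male LKO, 0.564, 0.537, 0.416 and 0.397% in female CRE- and 0.345, 0.441, 0.279 and 0.564% in female LKO. The highest Sting1 level in the series, in female LKO replicate 1, was thus 0.345% of a macrophage marker sum that was itself the highest of the 16. The female mean was 0.478 ± 0.0845% (SD, n = 4) in CRE- and 0.407 ± 0.124% in LKO, with overlapping groups. In bulk liver, fewer cells of a type and less RNA per cell cannot be told apart, and the part of the marker shift in the Sting1 values was not tested.

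Zbp1, measured against the same sum, stood at 1.92, 2.06, 1.30 and 1.46% in male CRE- and at 1.18, 1.16, 1.20 and 0.995% in male LKO, which did not overlap. In females it stood at 2.60, 1.22, 1.41 and 1.33% in CRE- and at 0.676, 1.27, 0.855 and 1.30% in LKO, which did. Against the leukocyte sum the male groups overlapped, at 12.01, 15.2, 5.06 and 10.1% in CRE- and 8.01, 7.76, 8.77 and 8.45% in LKO. The macrophage ratio was singled out after its values had been seen and is given without a test. With the leukocyte sum, Pearson r on log2 values over 16 livers was 0.932 for Sting1 (Spearman's rho 0.926), 0.841 for Zbp1 (rho 0.832), 0.816 for Aim2 (rho 0.797) and 0.740 for Ikbke (rho 0.735). Among all marker lists Aim2 had its highest r with the dendritic cell markers (0.870, rho 0.876). Ikbke had its highest with the neutrophil markers (0.801, rho 0.585), and Zbp1 with the T and NK cell markers (0.873, rho 0.844). That of Sting1 was with the macrophage and Kupffer cell markers (0.953, rho 0.941). By rho Ikbke was instead highest with the leukocyte and the macrophage and Kupffer cell markers (0.735 for each). Without the 2 livers farthest from the Ikbke median, its r was 0.565 with the neutrophil markers and 0.693 with the leukocyte markers. With the leukocyte sum r was lower for Cgas at 0.409 (rho 0.168), Tbk1 at -0.02 (rho 0.02) and Irf3 at -0.28 (rho -0.25). The highest r of Cgas with any marker list was 0.562 (rho 0.515), with the dendritic cell markers. All these coefficients are descriptions, and the livers within them share a group.

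**Figure D3:**
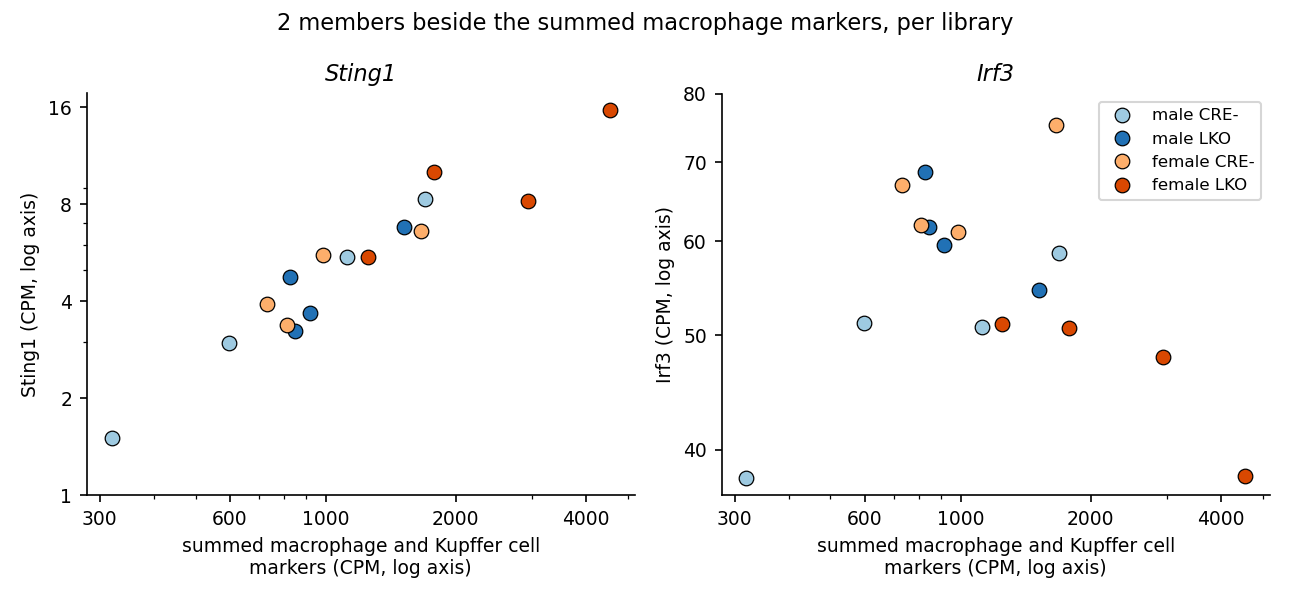
Each point is 1 liver, with the summed CPM of 11 macrophage and Kupffer cell markers on a log axis against the CPM of Sting1 (left) and Irf3 (right) on a log axis, coloured by group. Sting1 went from 1.51 CPM at a sum of 320 to 15.7 CPM at a sum of 4551, while Irf3 was at 37.9 and 38.0 CPM in those same livers.

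Other cell type markers were counted in the same fit. In females 2 of 8 monocyte and recruited macrophage markers passed in edgeR, both higher in LKO with 4 of 4 livers above the CRE- mean. They were Itgam, an integrin of myeloid cells (log2 fold change 2.57 ± 0.64, edgeR with Benjamini-Hochberg adjustment, adjusted p = 0.0369), and Trem2, a receptor of lipid-associated macrophages (2.701 ± 0.60, adjusted p = 0.0249). Of the neutrophil markers 2 of 6 tested passed, Retnlg and Mpo, of the endothelial markers 2 of 8, Cdh5 and Vwf, and of the proliferation markers 4 of 5, Birc5, Ccnb1, Cdk1 and Top2a, each with a higher mean in female LKO, beside 4.24% of all genes tested. Of the endothelial markers 1 had a lower mean in female LKO at an unadjusted p under 0.05. None of the 7 dendritic cell, 11 T and NK cell, 8 B and plasma cell, 9 stellate cell and fibroblast, 6 cholangiocyte or 8 hepatocyte markers passed in females, and 0 markers of any list passed in males. In males 5 of 6 neutrophil markers had an unadjusted p under 0.05 (9.53% of all genes), all with a lower mean in LKO. The neutrophil sum was 78.6, 20.6, 16.9 and 143 CPM in male CRE- and 26.9, 16.6, 12.97 and 12.5 CPM in male LKO, so that CRE- replicates 1 and 4 stood above the rest. In females it was 36.8, 20.2, 16.7 and 16.7 CPM in CRE- and 124, 43.8, 63.1 and 535 CPM in LKO, with replicate 4 far above the others. For the difference between the sexes 0 of these 6 passed in edgeR and 6 had an unadjusted p under 0.05, as had 2672 of all genes tested. The most abundant genes of those 6 lists were Itgax, Nkg7, Ighm, Dcn, Sox9 and Alb, and of the other lists Lyz2, S100a9, Stab2 and Mki67.

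Hepatocyte markers had lower means in female LKO. Their sum was 122808, 114649, 119684 and 134464 CPM in female CRE- and 60775, 94744, 92528 and 74369 CPM in female LKO, with no overlap. Alb itself had a log2 fold change of -0.69 ± 0.24 in females (edgeR with Benjamini-Hochberg adjustment, adjusted p = 0.103). Alb made up most of that sum, and 1 of the 8 markers had female groups that did not overlap, beside 11.6% of all genes tested. In edgeR 3 of the 8 had an unadjusted p under 0.05 in females, all with a lower mean in LKO, beside 21.4% of all genes. In males the mean sum was also lower in LKO (95227 ± 17246 against 79004 ± 11188 CPM, SD), with overlapping groups, while mean Irf3 was higher. Over the 16 livers Irf3 and the hepatocyte sum had r = 0.406 (rho 0.468), and 0.159 after removal of group means. With the summed proliferation markers Irf3 had r = -0.635 (rho -0.65), and -0.48 after removal of group means.

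Likeness of pattern was measured as the Pearson r of log2 CPM over the 16 livers, as a description with no test. Sting1 was most like Vasp (r = 0.977, rho = 0.976), Fxyd5 (r = 0.973, rho = 0.950) and Clec4a2 (r = 0.966, rho = 0.924), and after removal of the group means r with Vasp was 0.963. Zbp1 was most like Pilrb1 (0.930, rho 0.882), Rac2 (0.920, rho 0.8294) and Spi1 (0.919, rho 0.826), of which Rac2 and Spi1 encode a small GTPase of blood cells and the myeloid transcription factor PU.1. Aim2 was most like Myo1g (0.922, rho 0.932), Coro7 (0.912, rho 0.912) and Rasal3 (0.911, rho 0.874), and Ikbke most like Rhbdf2 (0.909, rho 0.824), Tes (0.908, rho 0.815) and Anxa1 (0.887, rho 0.774).

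The other 3 members had different neighbours. Irf3 was most like Pycr3 (r = 0.952, rho = 0.924), which encodes an enzyme of proline synthesis, Rassf7 (0.926, rho 0.926) and Ppp1r35 (0.923, rho 0.865). Tbk1 was most like Tia1 (0.911, rho 0.779), Ppp1r12a (0.876, rho 0.826) and Fubp1 (0.875, rho 0.865), and among the genes most like Cgas were Zdhhc23 (0.884, rho 0.818) and Adamts14 (0.844, rho 0.794). Without the 2 livers farthest from the median of each member the coefficients given here ran from 0.721 for Tbk1 and Ppp1r12a to 0.970 for Sting1 and Vasp.

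Among the members themselves, Sting1 and Zbp1 were the most alike pair (r = 0.901, rho = 0.856, and 0.906 after removal of group means). Sting1 with Ikbke gave 0.728 (rho 0.718), Sting1 with Aim2 0.695 (rho 0.744), and Zbp1 with Aim2 0.687 (rho 0.741). Sensor and receptor were far less alike, with r = 0.278 (rho = 0.106) for Cgas and Sting1. Cgas and Irf3 ran in opposite directions (r = -0.74, rho = -0.60, and -0.52 without the 2 livers farthest from the Cgas median).

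The wider pathway was described by 8 lists of 106 genes. In males 0 of their genes passed in edgeR, and in females 2 passed, beside 4.24% of all genes tested, Mavs with a lower level in LKO and Casp4 with a higher one. Mavs, the mitochondrial adaptor through which RNA sensors reach TBK1, measured 95.0, 93.2, 98.9 and 90.2 CPM in female CRE- and 55.7, 68.6, 54.9 and 64.2 CPM in female LKO. The groups did not overlap, and the log2 fold change was -0.63 ± 0.16 (edgeR with Benjamini-Hochberg adjustment, adjusted p = 0.0395), with 4 of 4 LKO livers lower. In males Mavs had a log2 fold change of -0.24 ± 0.16 (edgeR with Benjamini-Hochberg adjustment, adjusted p = 0.666), and the difference between the sexes had an adjusted p of 0.391. Mavs was the 1 of 10 TBK1 adaptors and RNA sensing genes that passed, the most abundant gene of that list was Optn, and without both libraries that stood apart 0 of the 10 passed. Mavs also passed in females with DESeq2 (log2 fold change -0.62) and limma-voom (-0.67). In edgeR its call was also lost on leaving out any single female library other than LKO replicate 2, and on leaving out male LKO replicate 2 or 3.

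Casp4 encodes caspase-11, which cleaves gasdermin D. Casp4 and Nlrp3 act in inflammasomes other than that of AIM2, although both were put in the AIM2 inflammasome list. Casp4 was the 1 of 7 genes of that list that passed. It measured 3.66, 1.65, 2.59 and 1.74 CPM in female CRE- and 13.3, 4.51, 4.26 and 15.5 CPM in female LKO, with no overlap. The log2 fold change was 1.96 ± 0.49 in females (edgeR with Benjamini-Hochberg adjustment, adjusted p = 0.0367) and -0.09 ± 0.48 in males (adjusted p = 0.968), and the difference between the sexes had an adjusted p of 0.213. In that list 5 of 7 genes had an unadjusted p under 0.05 in females (21.4% of all genes), all with a higher mean in LKO, and the median log2 fold change was 1.23 in females and -0.24 in males (0.13 without male CRE- replicate 4). Gsdmd, the most abundant gene of the list, had -0.30 ± 0.24 in females. Casp4 also passed in females with DESeq2 (log2 fold change 1.97) and limma-voom (1.30). In edgeR its call was lost without both libraries that stood apart, and 0 of 7 genes then passed. It was also lost without female CRE- replicate 2, 3 or 4, female LKO replicate 1 or 4, male CRE- replicate 1, or male LKO replicate 2 or 4, each left out alone. Of myeloid markers, 1 of 11 for macrophages, 2 of 8 for monocytes and 2 of 6 for neutrophils passed in females, beside 4.24% of all genes. Those called had a higher mean in LKO, while the summed macrophage markers overlapped between the female groups. The part of such cells in the Casp4 value was not tested.

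Interferon-stimulated targets, which are read out downstream of IRF3 and of the interferon receptor, numbered 28, and all 28 were tested. In females 0 of 28 passed in edgeR, 8 had an unadjusted p under 0.05 with a higher mean in LKO and 2 with a lower one, while DESeq2 called 4 and limma-voom 3. Over all genes the shares were 4.24% called and 21.4% at an unadjusted p under 0.05 in edgeR, 10.2% called in DESeq2 and 11.8% in limma-voom. The median log2 fold change was 0.48 in females (0.10 without LKO replicate 1) and -0.13 in males (0.06 without CRE- replicate 4), and 0 of 28 passed in males with any of these 3 tools. Values of single genes went both ways: in females the log2 fold change was 1.41 ± 0.47 for Oas2, an antiviral enzyme, and -0.96 ± 0.35 for Oasl1 (edgeR with Benjamini-Hochberg adjustment, adjusted p = 0.0920 and 0.118), 2 genes named after their values were seen. Oas2 passed in DESeq2 and limma-voom, and Oasl1 in limma-voom. With shared replicate numbers taken as pairs, which the labels do not state, Oas2 also passed (log2 fold change 1.45). Bst2, the most abundant of the list, had -0.20 ± 0.28.

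The remaining lists had 0 genes past the threshold in either sex in edgeR, and their counts at an unadjusted p under 0.05 in females stand beside 21.4% of all genes tested. Of the type I interferon ligands, receptors and factors 11 of 15 were tested, with Jak1 the most abundant, 3 genes were at 0 in every library, and 1 had an unadjusted p under 0.05 in females. Of the genes for DNA clearance and cGAMP handling 11 of 12 were tested, with Dnase1l3, a secreted nuclease, the most abundant, and 3 had an unadjusted p under 0.05 in females, all higher in LKO. Of the 14 STING partners and regulators, led by Surf4, 6 had an unadjusted p under 0.05 in females, 5 higher and 1 lower. The ZBP1 cell death list had 1 of 5, with Ripk1 the most abundant, and the NF-kB arm 4 of 13 tested, with Chuk the most abundant. In females DESeq2 called 1 of the DNA clearance genes, 2 of the STING partners and 2 of the NF-kB arm, and limma-voom called 1, 2 and 1 of these, 1 of the type I interferon list and 1 of the ZBP1 cell death list.

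Promoter windows of 250 bases before to 50 bases after the gene start, from RefSeq on GRCm38.p6, were found for 5 of the 7 members: Cgas, Tbk1, Irf3, Ikbke and Aim2. No window was available for the other 2. Searched on both strands, GAAANNGAAA (interferon-stimulated response element core) was in 3.44% of 32851 promoters, GGGANNTTCC (NF-kB site) in 1.47% and TTCNNNGAA (gamma-activated site) in 8.30%, and none of these was in any of the 5 windows. Because Spi1 was among the genes most like Zbp1, the PU.1 letters GAGGAAGT were added after values and sequences had been seen. They were in 3.20% of all promoters and in 1 of the 5, that of Aim2. Its 250 bases before the start, chr1:173420354-173420603 on the plus strand of GRCm38.p6, are shown for that match, which is in capitals, from 113 to 106 bases before the start. The counts used GRCm39, and the place of this start within the counted Aim2 gene was not determined. A match of letters is a description and says nothing about binding.

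Aim2: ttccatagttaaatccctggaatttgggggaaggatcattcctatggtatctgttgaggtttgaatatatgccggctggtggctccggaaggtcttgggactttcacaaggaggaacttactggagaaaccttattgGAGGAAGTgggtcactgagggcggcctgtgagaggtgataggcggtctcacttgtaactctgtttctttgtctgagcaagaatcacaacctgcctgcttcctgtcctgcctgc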

How the data were processed

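Per the labels and the file headers, the authors sequenced poly-A RNA of 16 livers, aligned the reads with STAR 2.7.1a to GRCm39 and deposited counts per gene from featureCounts (Subread 2.0.6), which used strand and counted single reads of each pair. Total counts per library ran from 33268424 to 56488920. From these counts CPM, edgeR 4.0.16 quasi-likelihood tests (TMM, filterByExpr with a minimum count of 10, 4 groups in 1 fit) and Benjamini-Hochberg adjustment over 16742 genes were computed in R 4.3.3. DESeq2 1.42.0 and limma-voom (limma 3.58.1) were alternatives. Correlations used log2 CPM with a prior count of 2. The fits were tested on simulated data. Named genes were the 7 members, of each list the called genes with the smallest p (up to 5) and the most abundant gene, and genes among the 3 most like each member, and the text says where a gene outside this rule was named after its values were seen. The members and lists were chosen with earlier results of these data known. Of the 9 hepatocyte markers, 8 were in the table.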

Additional observations from a re-analysis of the deposited data

Results flagged for a closer look

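Irf3 lay on opposite sides of the CRE- mean in the LKO livers of the 2 sexes. All 4 male LKO livers were above the male CRE- mean and all 4 female LKO livers below the female CRE- mean, and the female minus the male log2 change was -0.80 (edgeR interaction test, unadjusted p = 0.00221, Benjamini-Hochberg adjusted p = 0.173). The difference thus did not pass in edgeR, while DESeq2 gave a Benjamini-Hochberg adjusted p of 0.0470, in a range of 0.0470 to 0.340 over the alternatives run.

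Aim2 in male LKO replicate 1 measured 5.09 CPM while the other 3 livers of that group lay between 1.91 and 1.999 CPM. Its gap to the nearest liver was 0.973 of the range of the group, above Dixon's 95% critical value for 4 values. Of 28 combinations of gene and group this was the 1 past that value, and chance gives about 1 in 20. In the same library the leukocyte markers summed to 225 CPM, beside 99.7 to 125 CPM in the other 3, and the part of those cells in the value was not tested.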

How the results depend on the processing

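Over the alternatives run, no called value changed direction. Of the members' log2 changes in 3 comparisons, 335 of 336 values with 1 library left out and 179 of 182 other values kept their direction and side of the threshold, or lay within the spread. The 1 of 336 was Aim2 in males without CRE- replicate 1. The 3 of 182 were Irf3, which passed in females with DESeq2 and limma-voom and in the sex difference with DESeq2. The cause was not tested.

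Members called in females numbered 0 in edgeR, 1 with DESeq2 and 1 with limma-voom. DESeq2 also called 1 member for the sex difference and 1, Cgas, for female against male LKO. Other alternatives, and each of 16 fits without 1 library, called 0. Leaving out libraries moved Irf3 in females between -0.54 and -0.39, Cgas between 0.61 and 1.60 (0.61 without female LKO replicate 1), Sting1 between 0.72 and 1.22 and Ikbke between 0.32 and 0.83. The male Aim2 value ran from -0.94 to 0.14, and the latter was without CRE- replicate 1.

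All genes called in males numbered 76 in edgeR, 336 with DESeq2 and 148 with limma-voom. Without 1 library they ran from 26 (male CRE- replicate 3) to 111 (female LKO replicate 1). In females 710 became 1795 with DESeq2, 1976 with limma-voom, 119 with each sex fitted alone, which leaves fewer samples to estimate spread, and 361 with both libraries that stood apart left out, an alternative chosen after seeing the data. Without 1 library they ran from 87 (female CRE- replicate 2) to 1310 (female LKO replicate 2). For the sex difference 0 became 372 with DESeq2, 29 with limma-voom and 12 with no filter on low counts, and without 1 library 0 to 14 (14 without male LKO replicate 1). The cause was not tested.

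List counts in females changed as follows. DESeq2 called 1 gene of DNA clearance and cGAMP handling, 2 STING partners and regulators, 4 interferon-stimulated targets, 2 of the AIM2 inflammasome and 2 of the NF-kB arm. Limma-voom called 1, 2, 3, 4 and 1 of those lists, 1 type I interferon ligands, receptors and factors gene and 1 of ZBP1 cell death. With each sex fitted alone, and with 2 libraries left out together, TBK1 adaptors and RNA sensing went from 1 to 0 and the AIM2 inflammasome from 1 to 0. With no filter on low counts TBK1 adaptors and RNA sensing went to 0, and with at least 10 counts in every library the NF-kB arm had 1. Without 1 library the counts ran from 0 to 1 for DNA clearance and cGAMP handling, TBK1 adaptors and RNA sensing and interferon-stimulated targets, and from 0 to 2 for STING partners and regulators, the AIM2 inflammasome and the NF-kB arm.

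The replicate block took the shared replicate numbers as pairs, which the labels do not state. The correlation of deviations was above 0.1 in 6 of 8 same-number pairs and in 3 of 24 pairs of different numbers, and 4 CRE- libraries were nearer to an LKO library of another number: male replicate 2 to 4 (r = 0.213), male 4 to 1 (r = 0.118), female 3 to 2 (r = 0.242) and female 4 to 1 (r = 0.0346). With the replicate block 2 genes were called for the sex difference, 1 of STING partners and regulators, 1 interferon-stimulated target, 2 of the AIM2 inflammasome and 1 of the NF-kB arm, the last 4 in females. No share of all genes called in females with that block is given, so these list counts cannot be set against a background.

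Of the 3 genes most like each member by r, between 0 and 1 were among the 3 by Spearman's rho, and between 0 and 2 by deviations from group means.

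Each group held 4 mice, so that changes under the spread between mice could not be seen. Cgas had 10 to 136 reads per library and Aim2 56 to 364, which adds counting error. The common biological coefficient of variation was 0.381. Reads over the whole gene cannot tell transcripts with the Gcgr deletion from others, nor RNA from protein or phosphorylation of the kinases and IRF3. Whole liver mixes cell types, and its marker lists hold genes that several cell types share.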
